A study of Arabidopsis thaliana with 6 samples.

Results

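Transcripts of 5 genes that respond early to the plant hormones auxin and cytokinin were followed in rosettes of Arabidopsis thaliana. The genes are GH3.3 (AT2G23170), GH3.5 (AT4G27260) and IAA29 (AT4G32280) on the auxin side, and ARR15 (AT1G74890) and ARR16 (AT2G40670) on the cytokinin side. They were chosen by name, with earlier results of these data known. Each is read by 1 probe set that names only that gene, so the 5 genes are 5 of the 13513 probe sets that name 1 gene, among 22746 probe sets tested. The array's annotation names 3 of them by these symbols. It lists GH3.5 as WES1 and ARR16 as RR16, and those were matched through the RefSeq synonyms of the same gene IDs.

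The arrays came from rosette leaves of plants aged 21 days, grown in pots with 12 h of light per day and kept well watered. The wild type was Columbia-0. The other group was a double mutant in the kinase genes AT3G03940 (MLK2) and AT5G18190 (MLK1), written as "double mutant at3g03940/at518190 -/-" in the labels, where the second locus lacks a digit. The labels call these plants both knockdown and homozygous, and the sources used here do not name the alleles. There were 3 arrays for each genotype, and nothing says whether replicates came from different plants or from pools. The p-values thus cover the spread among these samples, which may be technical in part. A rosette mixes many cell types, and a lower signal from fewer cells of a type cannot be told apart from less RNA per cell.

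Auxin acts by bringing Aux/IAA repressor proteins to receptor F-box proteins, which leads to their destruction and frees auxin response factors to switch on target genes. Among the earliest targets are genes of the repressors themselves and of GH3 enzymes, which join auxin to amino acids and so lower the level of free hormone. Cytokinin acts through a phosphorelay from membrane kinases to type-B response regulators, transcription factors whose fast targets include the type-A regulators, which in turn dampen the relay. Both sets of genes are therefore read as early outputs of their hormone and as parts of its negative feedback.

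Controls and marker genes on the same arrays also differed between the genotypes. The targeted gene MLK1 read 7.92, 7.74 and 7.63 in the wild type and 3.42, 3.57 and 3.36 in the double mutant, where all arrays lay below their own lower quartile, a drop of at least 16.2-fold against that floor. No probe set names MLK2, and it was not analysed here. Of 29 leaf markers 6 were measured, 5 of them above the upper quartile of each array. Of these 6 markers, 4 were higher in the double mutant, against 19.8% of all tested probe sets. The mean of the 6 leaf markers was 11.63 to 11.76 in the wild-type arrays and 12.07 to 12.12 in the double mutant arrays. Of 11 root markers 3 were measured. PYK10, a root beta-glucosidase, was above the upper quartile of each array and higher in the double mutant, and the other 2 did not pass. The 25S ribosomal RNA control was 5.45 to 6.81 in the wild type and 12.08 to 12.32 in the double mutant. Of 6 control pairs that read the 5′ and the 3′ end of a transcript, the 5′ end against the 3′ end was higher in the double mutant by 0.67 and 0.35 for both actin pairs and by 0.38 for a GAPDH pair. It differed by -0.19 for a ubiquitin pair, lower in the double mutant, and by 0.03 and 0.06 for the other GAPDH and ubiquitin pairs. In wild-type replicate 2 all 9 hybridisation spike controls were at their lowest. The part of these differences in the results was not tested.

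All values below are log2 expression values as deposited, so a difference of 1 is a doubling of the signal. Differences are double mutant minus wild type, and their SE, 95% interval and p come from limma with Benjamini-Hochberg adjustment over all tested probe sets at a threshold of 0.05. All 5 genes passed, GH3.3, ARR15 and ARR16 as higher and GH3.5 and IAA29 as lower in the double mutant. The threshold was passed by 38.5% of all tested probe sets, 19.8% as higher and 18.7% as lower. The arrays of both genotypes did not overlap for any of the 5 genes, which was also the case for 49.7% of all tested probe sets. The median absolute difference of the 5 genes was 0.77, against 0.21 over all tested probe sets, and their median signed difference was 0.39, against -0.01. Because the 5 genes were chosen with earlier results of these data known, these counts and medians only describe them. For each gene alone, permuting the 6 arrays exactly gave a two-sided p = 0.1, the smallest that 3 arrays against 3 allow.

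**Figure D1:**
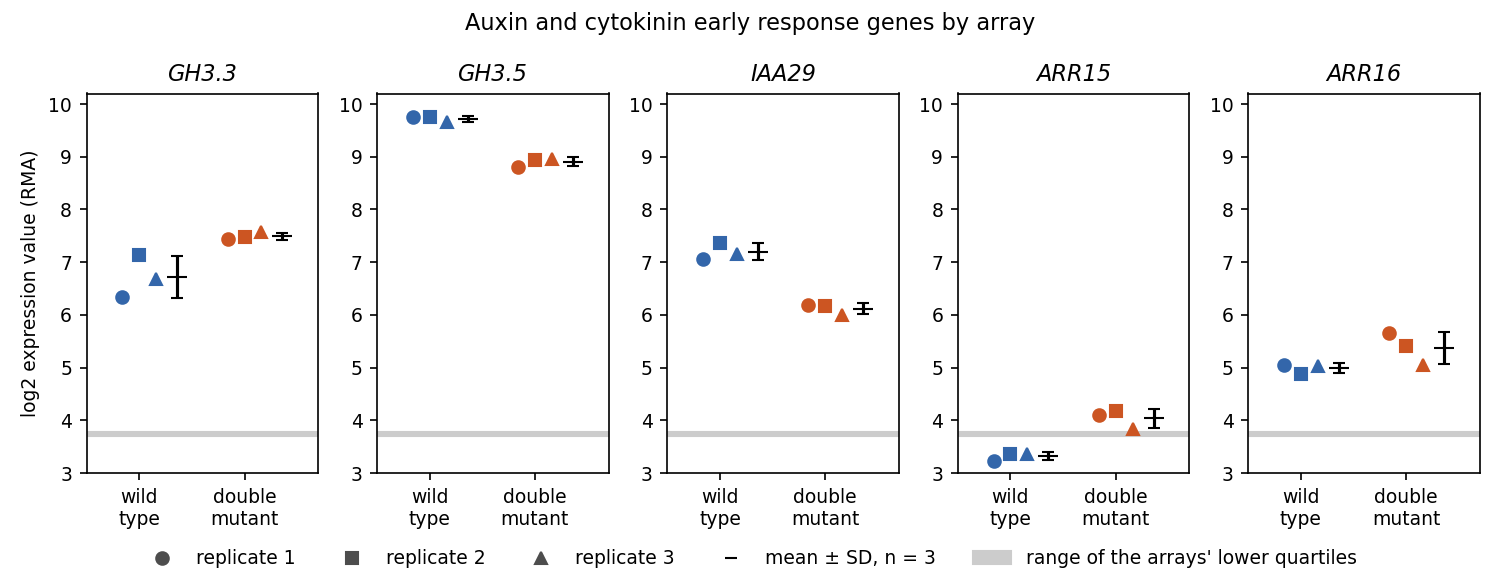
Log2 expression value of each of the 5 genes on each of the 6 arrays, with a marker shape per replicate number, the mean and SD of 3 arrays beside them, and a grey band for the range of the arrays' lower quartiles. GH3.5 and IAA29 are lower in every double mutant array, the other 3 genes are higher in every double mutant array, wild-type ARR15 lies under the band, and ARR16 in double mutant replicate 3 is level with the wild type.

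GH3.3 and GH3.5, relatives in the family of auxin-conjugating enzymes, moved in opposite directions. The log2 value of GH3.3 was 6.33, 7.14 and 6.68 in wild-type replicates 1, 2 and 3 and 7.43, 7.48 and 7.57 in the double mutant replicates. Its wild-type arrays were spread over a wide range with replicate 2 on top, while the double mutant arrays lay close together and above all of them. Its mean went from 6.72 ± 0.40 up to 7.49 ± 0.07 (SD, n = 3), with a difference of 0.77 (SE 0.17, 95% interval 0.41 to 1.14) or 1.71-fold, with limma adjusted p = 0.0035. The residual SD of GH3.3, 0.29, was 2.32 times the median over all probe sets, and only 2.1% of them had a larger one. Without wild-type replicate 2, the array that also stood apart in the spike controls, the difference was 0.98, and without wild-type replicate 1 it was 0.58.

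GH3.5, which acts on auxin and also on salicylic acid, was the more evenly measured of the pair. Its values were 9.75, 9.75 and 9.66 in the wild type and 8.81, 8.95 and 8.96 in the double mutant. The 3 arrays of a genotype lay within 0.15 of each other, and a gap of 0.70 separated the genotypes. Its mean went from 9.72 ± 0.05 down to 8.91 ± 0.08 (SD, n = 3), with a difference of -0.81 (SE 0.09, 95% interval -1.01 to -0.62), with limma adjusted p = 3.1e-05. The wild-type signal was 1.75 times that of the double mutant.

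The GH3.3 signal was also set against the GH3.5 signal within each array, a comparison added after the data were seen, in which any scaling of a whole array cancels. The difference GH3.3 minus GH3.5 was -3.42, -2.61 and -2.98 in the wild type and -1.38, -1.47 and -1.4 in the double mutant. It moved by 1.59, or 3-fold, between the group means. This is a description, since GH3.3 was already higher and GH3.5 already lower in every double mutant array. Probe sets differ in brightness, so only the shift is read, as an unequal change of these signals, and not the level.

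IAA29, an Aux/IAA repressor gene that is also induced by shade through phytochrome-interacting factors, had the largest difference of the 5 genes in either direction. It read 7.05, 7.37 and 7.16 in the wild type and 6.18, 6.17 and 6.0 in the double mutant. Every double mutant array lay at least 0.87 below every wild-type array. Its mean went from 7.20 ± 0.16 down to 6.12 ± 0.10 (SD, n = 3), with a difference of -1.08 (SE 0.11, 95% interval -1.31 to -0.84), with limma adjusted p = 1.4e-05. The wild-type signal was thus 2.11 times that of the double mutant. A larger absolute difference was found for 5.96% of all tested probe sets, against 10.5% for GH3.5 and 11.5% for GH3.3.

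ARR15, a type-A response regulator of cytokinin signalling, was near the background in the wild type. Its values were 3.23, 3.36 and 3.36 there, each below the lower quartile of its array, by 0.37 to 0.55. In the double mutant it read 4.1, 4.18 and 3.83, each above that quartile, replicate 3 by only 0.05. The groups were separated by 0.47. Its mean went from 3.32 ± 0.08 up to 4.04 ± 0.18 (SD, n = 3), with a measured difference of 0.72 (SE 0.11, 95% interval 0.48 to 0.96), with limma adjusted p = 0.00032. Against the lower quartiles of the wild-type arrays, taken as the floor, ARR15 was at least 1.22-fold higher in the double mutant.

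ARR16, another type-A regulator, had the smallest difference and the weakest support. It read 5.05, 4.88 and 5.03 in the wild type and 5.66, 5.41 and 5.06 in the double mutant. Double mutant replicates 1 and 2 lay above the wild type, while replicate 3 exceeded the highest wild-type array by only 0.0047. Its mean went from 4.99 ± 0.09 up to 5.38 ± 0.30 (SD, n = 3), with a difference of 0.39 (SE 0.14, 95% interval 0.08 to 0.69) or 1.31-fold, with limma adjusted p = 0.048. Of the 6 fits that each left out 1 array, only the one without double mutant replicate 3 passed, with a difference of 0.55 (limma adjusted p = 0.0061). The lowest of these differences, 0.25, came without double mutant replicate 1 (limma adjusted p = 0.19). It also missed the threshold after median scaling, renewed quantile normalization, adjustment over the probe sets that name 1 gene, and a variance model with an intensity trend.

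**Figure D2:**
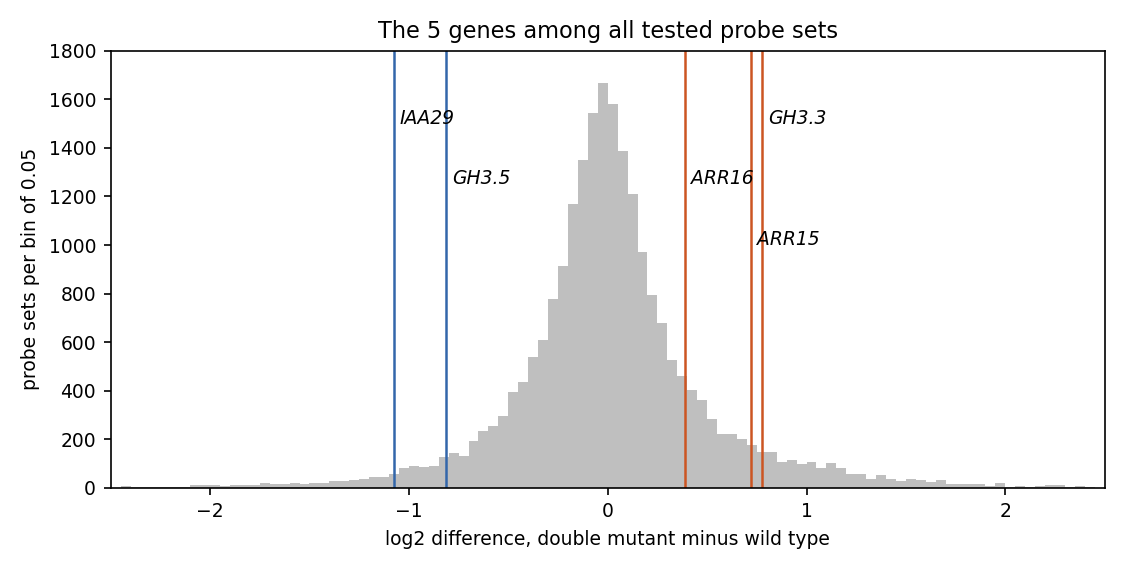
Number of tested probe sets in each bin of 0.05 of the log2 difference, double mutant minus wild type, with a vertical line at the value of each of the 5 genes. The axis ends at 2.5 in both directions, which leaves out 125 probe sets, and IAA29 at -1.08 is the farthest of the 5 genes from 0.

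Other genes of the auxin pathway were taken from a list of 240 symbols by role. Of its 20 measured genes, the 3 auxin genes above included, 5 were higher, 5 were lower and 10 did not pass. That is 50% called, against 38.5% of all tested probe sets, but the 3 genes and the list were chosen with earlier results known. Of the other 17 measured genes, 4 were higher, 3 were lower and 10 did not pass. The median difference of the 20 genes was 0.06. Receptors, auxin response factors, conjugate hydrolases and SAUR genes were not analysed here, since no probe set that names 1 gene carries their listed symbols.

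Of 5 measured genes of the GH3 family, 4 were called, GH3.3 and GH3.5 included, against 38.5% of all tested probe sets. Of the other 3, 2 were higher and 1 did not pass. GH3.9 read 3.84, 3.93 and 4.09 in the wild type and 5.0, 4.96 and 4.89 in the double mutant, a difference of 1.0 (SE 0.09, limma adjusted p = 1.1e-05), larger than that of GH3.3. Its wild-type signal was weak, as the lower quartiles of those arrays were 3.78, 3.76 and 3.73. GH3.17, whose enzyme joins auxin to glutamate, rose by 0.27 (SE 0.09, limma adjusted p = 0.028) from 6.78 ± 0.06 to 7.05 ± 0.01 (SD, n = 3). This call was lost after median scaling, where the difference was 0.22 (limma adjusted p = 0.075), and in 4 of the 6 fits without 1 array, those that left out any of the double mutant replicates or wild-type replicate 3. GH3.1 was below the lower quartile of all 6 arrays and did not pass (limma adjusted p = 0.13). GH3.5 was thus the only measured GH3 gene that was called lower.

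IAA29 and IAA18 were the called genes among 7 measured Aux/IAA repressors, both lower. That is 28.6% called, against 38.5% of all tested probe sets. IAA18 fell by 0.34 (SE 0.09, limma adjusted p = 0.013), from 7.86 ± 0.09 to 7.52 ± 0.08 (SD, n = 3), and its adjusted p was 0.056 without double mutant replicate 3. The other 5, IAA20, IAA30, IAA31, IAA33 and IAA34, read between 2.9 and 4.28 in every array and did not pass.

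Outside these families, 5 genes of auxin biosynthesis and transport were measured, of which 1 was higher, 2 were lower and 2 did not pass. That is 60% called, against 38.5% of all tested probe sets, in a list chosen with earlier results known. WAG2, a protein kinase that acts on PIN auxin carriers and the only measured transport gene, read 6.38, 6.79 and 6.72 in the wild type and 4.98, 5.01 and 5.03 in the double mutant. Its drop of -1.62 (SE 0.11, limma adjusted p = 1.2e-06) was larger than that of IAA29. Of 4 measured YUC genes, which encode flavin monooxygenases that make auxin, YUC6 fell by 0.34 (SE 0.09, limma adjusted p = 0.0098) and 2 did not pass. YUC11 was called higher, with a difference of 0.38 (SE 0.11, limma adjusted p = 0.021). However, it was below the lower quartile in each wild-type array and in 2 of the 3 double mutant arrays. The call was lost when wild-type replicate 2 or double mutant replicate 3 was left out (limma adjusted p = 0.06 and 0.093).

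Of 3 measured genes of other auxin targets, LBD16 and LBD29 did not pass. HAT2, a homeodomain-leucine zipper gene induced by auxin and by shade, read 8.29, 8.38 and 8.14 in the wild type and 9.17, 9.21 and 9.34 in the double mutant. It rose by 0.97 (SE 0.10, limma adjusted p = 1.8e-05) while IAA29, which shares both inducers, fell. HAT2 lies among chromosome 5 genes that were higher together. Of the 5 nearest measured genes on each side of it, 7 of 10 were higher and none was lower. Over all tested probe sets, 19.8% were higher and 18.7% lower. The median difference of the 10 neighbours was 0.82, and whether position plays a part for HAT2 was not tested. The third measured gene of the shade list, FHL, acts in phytochrome A transport into the nucleus. It fell by 1.89 (SE 0.15, limma adjusted p = 3.4e-06), from 6.36 ± 0.11 to 4.47 ± 0.35 (SD, n = 3). Thus 1 of 3 measured shade genes was higher and 2 were lower, against 19.8% and 18.7% of all tested probe sets. IAA29 is among these 3 genes, and the list was chosen with earlier results known. Phytochromes and phytochrome-interacting factors were not analysed here, as no probe set that names 1 gene carries their symbols.

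The cytokinin list held 94 symbols. Of its 7 measured genes, ARR15 and ARR16 included, 3 were higher, 2 were lower and 2 did not pass. That is 71.4% called, against 38.5% of all tested probe sets, but ARR15, ARR16 and the list were chosen with earlier results known. Of the other 5 measured genes, 1 was higher, 2 were lower and 2 did not pass. UGT76C1 and UGT76C2 encode related enzymes that inactivate cytokinin by adding glucose, and their genes are neighbours on chromosome 5. UGT76C2 read 5.68, 5.84 and 5.66 in the wild type and 6.87, 6.83 and 6.78 in the double mutant, a rise of 1.1 (SE 0.09, limma adjusted p = 3.7e-06). UGT76C1 fell by 0.30 (SE 0.10, limma adjusted p = 0.032), a call that was lost when double mutant replicate 2 or 3 or wild-type replicate 3 was left out (limma adjusted p = 0.051, 0.13 and 0.089). In each of these 3 fits the count of called cytokinin genes was 3. Of the 10 nearest measured genes around UGT76C1, 2 were higher and 5 were lower, against 19.8% and 18.7% of all tested probe sets. Their median difference was -0.32, and 5 of them fell by more than UGT76C1. ARR18, a type-B regulator, was called lower, with a difference of -0.36 (SE 0.10, limma adjusted p = 0.014), but it was below the lower quartile in all 6 arrays, so no fold is given, and it did not pass without double mutant replicate 3 (limma adjusted p = 0.059). ARR19 and ARR22 did not pass. The median difference of the 7 genes was -0.08. Cytokinin receptors, phosphotransfer proteins and biosynthesis genes were not analysed here for the same reason as the auxin receptors. Of 11 listed type-A regulator symbols only ARR15 and ARR16 were measured, so they do not stand for that family.

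**Figure D3:**
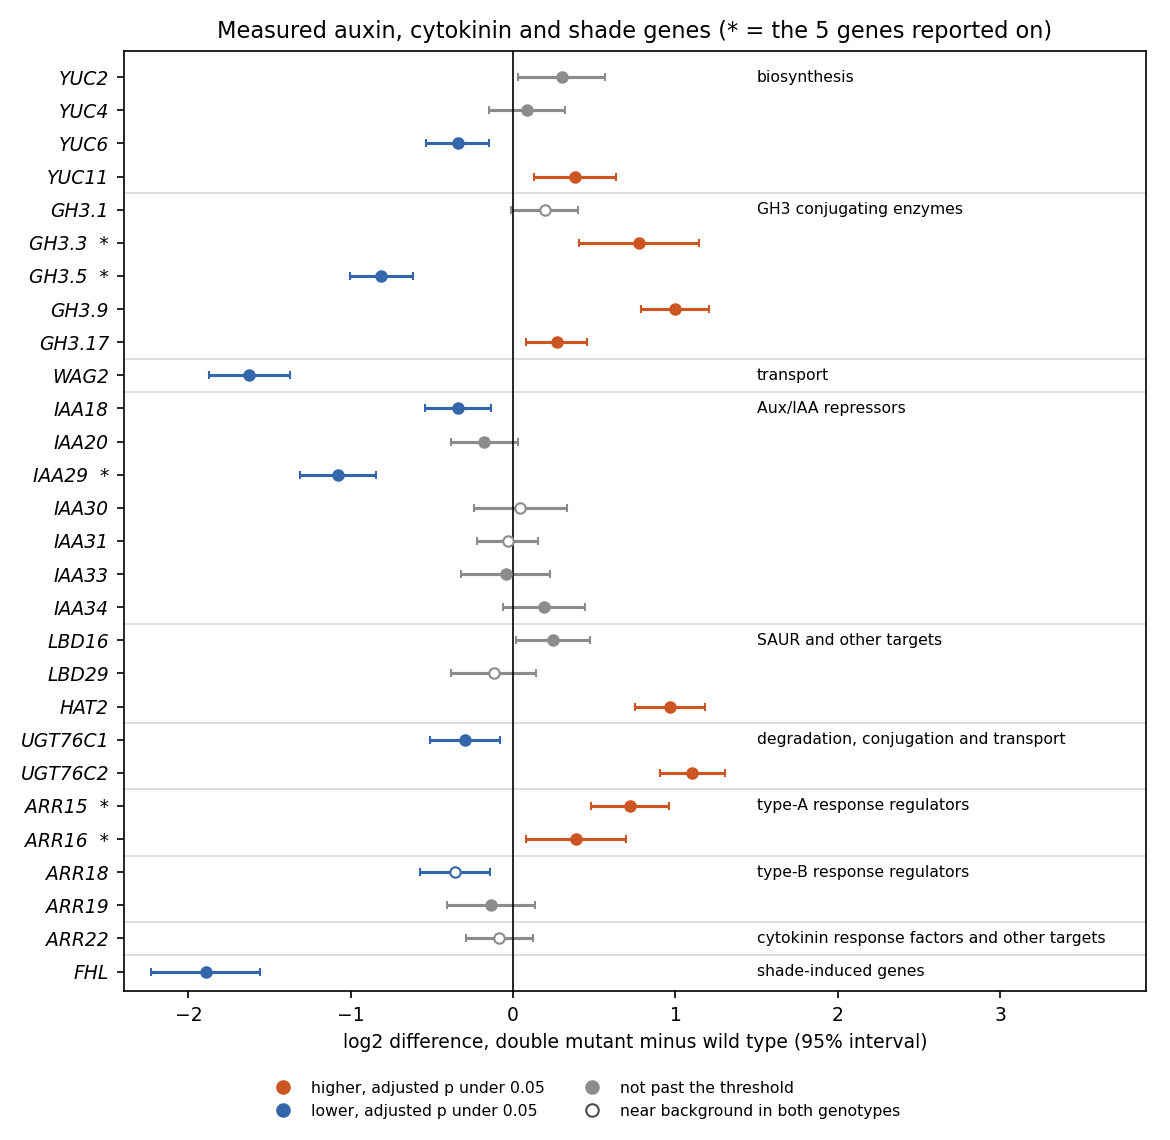
Log2 difference, double mutant minus wild type, with its 95% interval from limma, for each measured gene of the auxin, cytokinin and shade lists, grouped by role. Colours show the call and open circles mark genes below the lower quartile of each array in both genotypes. Within the GH3 family GH3.5 alone lies to the left, and no Aux/IAA gene is called higher. ARR15 and ARR16, the only type-A regulators measured, lie to the right.

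The 5 genes lie on chromosomes 1, 2 and 4, and the calls among their chromosome neighbours went in both directions. For comparison, 19.8% of all tested probe sets were called higher and 18.7% lower. Among the 5 nearest measured genes on each side, the calls were 1 higher and 2 lower around GH3.3, 2 higher and 3 lower around GH3.5, and 1 higher and 4 lower around IAA29. They were 4 higher and 1 lower around ARR15 and 1 higher and 2 lower around ARR16. The 4 higher around ARR15 and the 4 lower around IAA29 share the direction of the gene between them. The median difference of the 10 neighbours was between -0.13 and 0.06 for all 5 genes.

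The probe sets whose profile over the 6 arrays was most like that of each gene were found by the root-mean-square difference after centring each profile on its mean. Nearest to GH3.3 were AT1G21050 and AT2G32970, at 0.061 and 0.063 on the log2 scale. Like GH3.3, both were highest in replicate 2 among the wild-type arrays, with 7.97 for AT1G21050 and 6.99 for AT2G32970. The nearest to GH3.5 were AT2G04570 and AT2G33845, at 0.027 and 0.030. For IAA29 these were AT3G25400 and AT1G70900, at 0.055 and 0.065, and for ARR15 they were AT2G24860 and AT1G09980, at 0.033 and 0.046. ARR16 was most like AT4G21170, which did not pass (limma adjusted p = 0.13), and AT5G05210, at 0.065 and 0.071. Within 0.15 of the profile lay 61 probe sets that name 1 gene for GH3.3, 110 for IAA29, 185 for ARR16, 290 for ARR15 and 369 for GH3.5. These counts are out of the 13513 probe sets that name 1 gene. Whether genes with near profiles share a function or regulation was not tested.

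**Figure D4:**
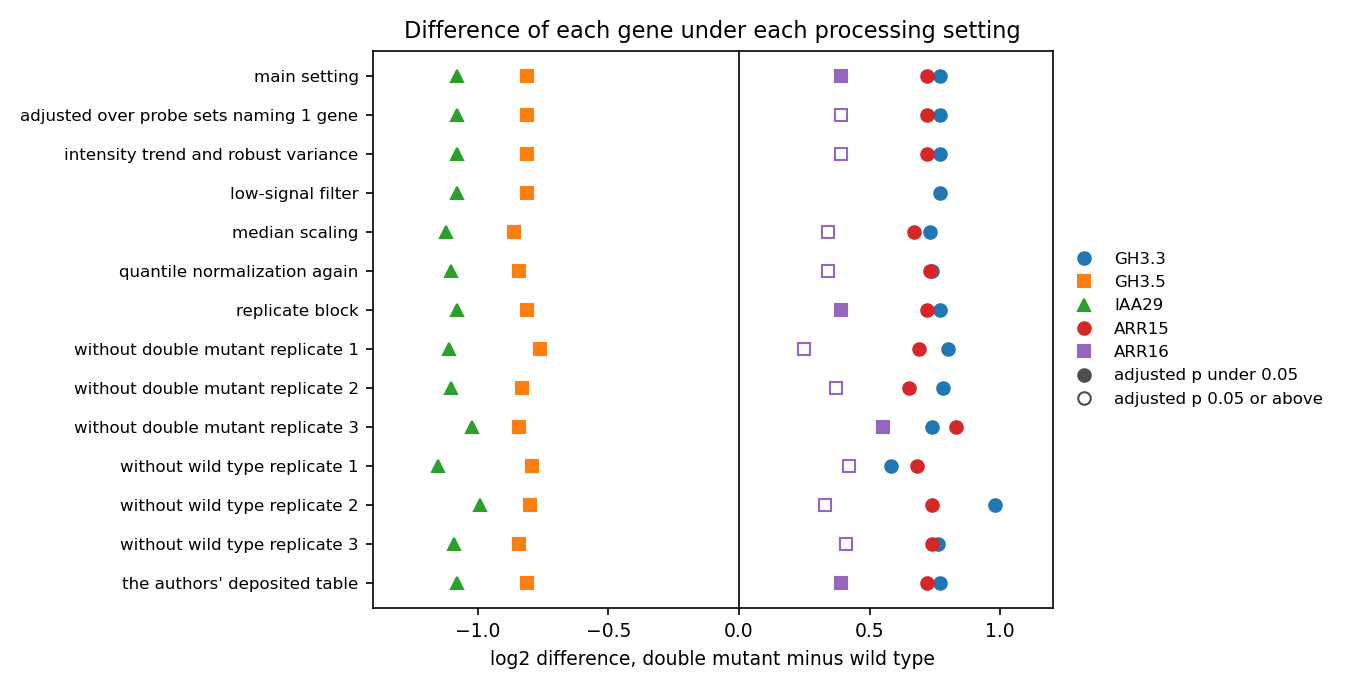
Log2 difference of each of the 5 genes under the main setting and each alternative, with filled markers where the limma adjusted p is under 0.05. The 4 genes other than ARR16 are filled wherever they are shown, with ARR15 and ARR16 missing under the low-signal filter, and ARR16 is open under 9 of the 12 alternatives that give it a value.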

How the data were processed

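Labelled cRNA from 6 RNA samples was hybridised to 6 Affymetrix arrays. The authors' deposited log2 values were made with RMA, which corrects background, quantile-normalizes and summarises probes, and with limma under R 2.9.0, per the submitters' processing notes. RMA compresses differences of weak signals. The authors' deposited table of limma p-values, moderated t and log odds score served only as an alternative; its log2 differences match the group means to within 5.1e-08. The values were used as deposited, after 64 control probe sets were left out. Each probe set was fitted with limma 3.58.1 under R 4.3.3 (genotype as the only term). Plots used Python 3.11.15 and matplotlib 3.10.9. A group is called near the background where each of its arrays reads below that array's lower quartile (3.70 to 3.78), since no detection calls were used; that quartile is the floor of a lower bound. Array medians were 5.81 to 5.91. The number of arrays limits the precision. On simulated data with 22746 probe sets, 200 of them changed, limma called 86.8% of differences of 1 and 33.2% of differences of 0.5. Of its calls, 3.99% were false. In the real data 38.5% of probe sets passed, so the simulated shares need not hold for them.

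The 5 genes and the lists were chosen with earlier results of these data known. Named are the 5 genes, the called genes of each list, a gene per role where none was called, and the 2 nearest profiles per gene; further uncalled list genes, the gene-order neighbours and the within-array difference were added after the data were seen. Gene names follow the array annotation and RefSeq (TAIR10.1). No scan dates or slides were used, so batches could not be examined. Alternatives were each array left out, a replicate block, a low-signal filter, median scaling, renewed quantile normalization, a trended robust variance, another adjustment family and the authors' table. A planned search of promoter motifs was not run, as no sequences were used here.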

Additional observations from a re-analysis of the deposited data

Results flagged for a closer look

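The 25S ribosomal RNA control probe set, which takes no part in the tests, was flagged because it stood above the wild-type level in all 3 double mutant arrays, by 6.26 on the log2 scale. The 5 genes were compared on the same arrays.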

How the results depend on the processing

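The differences of GH3.3, GH3.5, IAA29 and ARR15 kept their direction and stayed past the threshold under each alternative that gave them a value. Leaving out 1 array gave 0.58 to 0.98 for GH3.3, -0.84 to -0.76 for GH3.5, -1.15 to -0.99 for IAA29 and 0.65 to 0.83 for ARR15. ARR16 kept its direction with 0.25 to 0.55, but 5 of these 6 fits did not pass (adjusted p 0.063 to 0.19). It was 0.39 with adjusted p = 0.053 over probe sets naming 1 gene, 0.39 with 0.054 under the trended robust variance, 0.34 with 0.067 after median scaling and 0.34 with 0.07 after renewed quantile normalization. The low-signal filter removed ARR15 and ARR16, and left 3 of the 5 genes, 6 auxin genes and 2 cytokinin genes. These counts are smaller because fewer genes were tested. All genes that were left were called, and they were called in the main fit too. Under that filter 6240 of all 11373 probe sets were called. Leaving out 1 array gave 7 to 10 auxin genes, 3 to 4 cytokinin genes and 4 to 5 of the 5 genes called. Over probe sets naming 1 gene 4593 were called, because 13513 were tested, against 8757 of all tested. Median scaling moved the split of all calls from 4502 higher and 4255 lower to 3949 higher and 4942 lower. Same-numbered arrays did not deviate together (correlations -0.08, -0.10 and -0.16 for replicates 1, 2 and 3), so the numbers are not taken as pairs. The replicate block left all 5 genes called, with 0.77 for GH3.3 and 0.39 for ARR16, and called 8095 probe sets. Under it GH3.17 and UGT76C1 were not called (0.27, adjusted p = 0.066, and -0.30, adjusted p = 0.062), which left 9 auxin and 4 cytokinin genes called. Signals near the background, as for ARR15, limit the size of the folds.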
